A study of Homo sapiens with 6 samples.

Results

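The genes described here are 10 angiogenic factors and vascular receptors: the ligands VEGFA, VEGFB, VEGFC, PGF and FGF2, the secreted proteins ANGPTL4 and ESM1, and the receptors KDR, NRP1 and TIE1. They were picked by symbol from the 31835 genes of an RNA-seq table, and all 10 were found, each with 1 entry. The choice was made with earlier results of the same comparison known, so the differences between the groups are given as a description without a test of their own. The cells were MDA-MB-231, a widely used human line of triple-negative, mesenchymal-like breast cancer. Of the 6 libraries 3 came from vector cells and 3 from cells made to overexpress ADAMTS1, a secreted metalloprotease with thrombospondin motifs. Both groups share the line and differ, as far as the labels go, in ADAMTS1 alone. The form of ADAMTS1 in the construct, the promoter, and whether each line was a clone or a pool were not given in the sources used here. Levels are FPKM (fragments per kilobase of transcript, scaled to each library's mapped total), which divides by length, so that levels of different genes can be set side by side.

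VEGFA is the main growth factor of blood vessels. It binds the receptor tyrosine kinase KDR (VEGFR2) on endothelial cells, with NRP1 as a co-receptor, and low oxygen raises its mRNA through hypoxia-inducible factors. PGF and VEGFB bind the related receptor FLT1, while VEGFC acts mainly through FLT4 on lymphatic vessels. ESM1, or endocan, is a secreted proteoglycan known from endothelial tip cells, where VEGFA induces it. TIE1 is an orphan receptor that partners the angiopoietin receptor TEK. The ADAMTS1 protein has been described to bind VEGFA and to inhibit angiogenesis.

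ADAMTS1 was at 6.76 ± 0.216 FPKM (SD, n = 3) in the vector group and at 488 ± 22.3 FPKM in the ADAMTS1 group, so each library matched its label. The cells carried the markers of their line, with the intermediate filament gene VIM at 308 ± 5.71 and 323 ± 10.3 FPKM, the receptor tyrosine kinase gene AXL at 300 ± 14.5 and 279 ± 3.03 FPKM and the estrogen receptor gene ESR1 at 0.0192 ± 0.00995 and 0.0332 ± 0.0133 FPKM. The luminal keratin genes KRT8 (62.0 ± 1.84 and 61.5 ± 1.37 FPKM) and KRT19 (38.3 ± 4.50 and 36.1 ± 1.21 FPKM) were expressed as well. Of the 7 tested markers of the line 0 were called, with 1 higher and 1 lower at an unadjusted p under 0.05, and of the 5 tested luminal markers 0 by either rule. Over all tested genes 5.42% were higher and 6.78% lower at that unadjusted p. Depth relative to the first vector library was 1 to 1.26 in the vector group and 1.044 to 1.429 in the ADAMTS1 group, and the absolute depth is unknown. Of the 11897 genes with a mean of at least 1 FPKM, 8 passed an adjusted p of 0.05 by limma, 7 higher and 1 lower.

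In the vector cells the levels fell into 3 tiers. VEGFC, VEGFB, ANGPTL4, VEGFA and NRP1 had means of 14.2 to 23.6 FPKM, ESM1, TIE1 and PGF had 2.62 to 3.56 FPKM, and KDR and FGF2 were below 1 FPKM. VEGFC was the highest at 23.6 ± 1.57 FPKM, at the percentile 94.1 of all listed genes by mean over the 6 libraries, and FGF2 the lowest at 0.0442 ± 0.0206 FPKM, at the percentile 25.3. Neighbours in the order had separate ranges except for VEGFA and NRP1, and TIE1 and PGF, whose vector libraries overlapped. In the ADAMTS1 cells the order was the same except that NRP1 stood above VEGFA and their ranges no longer overlapped.

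**Figure D1:**
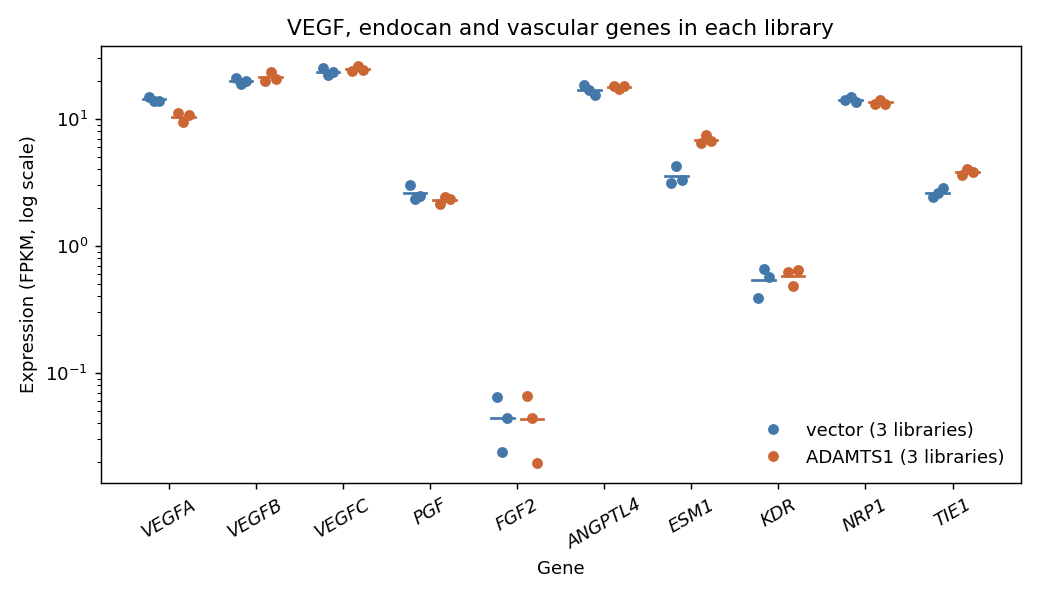
Expression of the 10 genes in each library, in FPKM on a log axis; each point is a library, blue for vector and orange for ADAMTS1, and the short lines are group means. VEGFA is lower and ESM1 and TIE1 are higher in every ADAMTS1 library than in every vector library, while the points of the other 7 genes overlap.

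Of the ligands, VEGFA (ENSG00000112715, hg38 chromosome 6, 43770184 to 43786487, plus strand) was the one whose groups did not overlap. It was at 14.9, 13.9 and 13.9 FPKM in the vector libraries and at 11.05, 9.49 and 10.7 FPKM in the ADAMTS1 libraries. The highest ADAMTS1 library lay below the lowest vector library. The group means were 14.3 ± 0.569 and 10.4 ± 0.816 FPKM, a ratio of 0.730, and the change on the log2(FPKM + 1) scale was −0.42 ± 0.058 (standard error of the limma fit). GENCODE 29 lists 32 VEGFA transcripts, 26 of them protein-coding, and the deposited value is for the gene, so its isoforms were not told apart. In bulk RNA, fewer expressing cells and less RNA per cell cannot be told apart either, here and for the genes that follow.

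VEGFB (ENSG00000173511, chromosome 11, 64234584 to 64239264, plus strand), a ligand of FLT1 and NRP1, was at 20.9, 18.9 and 19.9 FPKM in the vector libraries and at 19.9, 23.3 and 20.8 FPKM in the ADAMTS1 libraries. VEGFC (ENSG00000150630, chromosome 4, 176683538 to 176792922, minus strand) was at 25.3, 22.1 and 23.4 FPKM and at 24.0, 26.2 and 24.4 FPKM. The groups overlapped for both, with log2 changes of 0.095 ± 0.062 for VEGFB and 0.073 ± 0.054 for VEGFC. Their 95% intervals, −0.051 to 0.24 and −0.055 to 0.20, lie above the whole interval of VEGFA, −0.56 to −0.28. The intervals are unadjusted and the genes were chosen with this comparison known, so the difference between the genes was not tested. An antisense transcript (ENSG00000248388) overlaps VEGFC and was at 1.02 ± 0.307 and 1.07 ± 0.440 FPKM; without a stated strand setting its reads and those of VEGFC cannot be told apart where they overlap.

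PGF (ENSG00000119630, chromosome 14, 74941834 to 74955626, minus strand), placental growth factor, was at 3.01, 2.36 and 2.49 FPKM with the vector and at 2.13, 2.42 and 2.33 FPKM with ADAMTS1. The groups overlapped, and the change was −0.13 ± 0.084. FGF2 (ENSG00000138685, chromosome 4, 122826708 to 122898236, plus strand), the basic fibroblast growth factor, was at 0.0648, 0.0237 and 0.0441 FPKM and at 0.0657, 0.0444 and 0.0195 FPKM. These values lie far below the filter of 1 FPKM, the coefficient of variation was 46.6% and 53.6%, and the ratio of the group means was 0.977. NUDT6, the gene on the opposite strand that overlaps FGF2 over 9540 bases, was at 0.587 ± 0.201 and 0.654 ± 0.0619 FPKM, above FGF2 itself.

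Summed over VEGFA, VEGFB, VEGFC and PGF, the ligand mRNA was 60.4 ± 3.39 FPKM in the vector cells and 58.9 ± 2.29 FPKM in the ADAMTS1 cells. VEGFA made up 23.3%, 24.3% and 23.3% of this sum in the vector libraries and 19.4%, 15.4% and 18.3% in the ADAMTS1 libraries. The difference of the means was −5.91 percentage points, and −6.74 to −4.77 with any 1 library left out. VEGFC held 39.1 ± 0.444% and 42.2 ± 0.384% of the sum, VEGFB 33.0 ± 0.362% and 36.2 ± 1.60%, and PGF 4.32 ± 0.321% and 3.89 ± 0.145%. The ratio of VEGFA to VEGFB was 0.717 ± 0.0176 in the vector cells and 0.492 ± 0.0768 in the ADAMTS1 cells. Shares of a sum are not independent of each other.

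**Figure D2:**
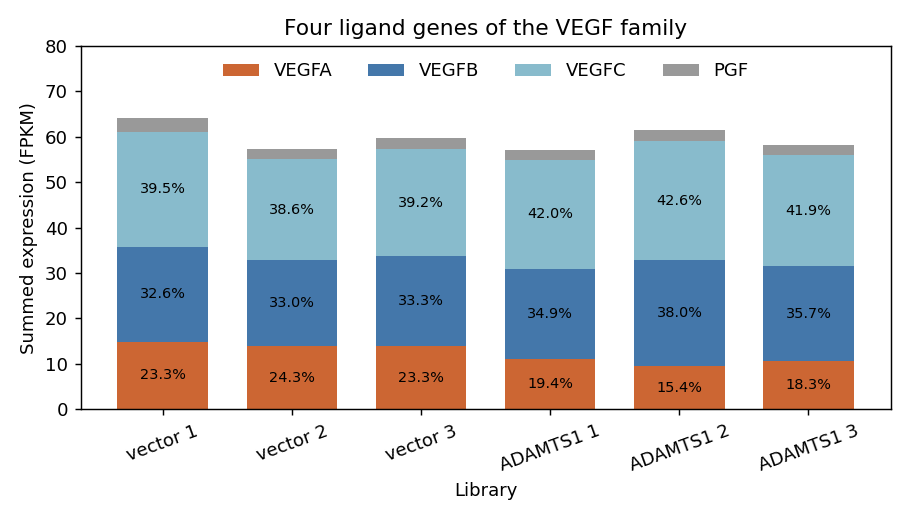
Stacked FPKM of VEGFA, VEGFB, VEGFC and PGF in each of the 6 libraries, with the share of the sum printed for the first 3 genes. The summed height is similar in both groups (60.4 and 58.9 FPKM on average), and the VEGFA segment is the smaller one in each ADAMTS1 library.

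Of the other secreted proteins, ESM1 (ENSG00000164283, chromosome 5, 54977867 to 55022671, minus strand) had the largest ratio between the groups among the 10 genes. It was at 3.15, 4.27 and 3.28 FPKM in the vector libraries and at 6.50, 7.41 and 6.72 FPKM in the ADAMTS1 libraries. Every ADAMTS1 library lay above every vector library. The means were 3.56 ± 0.615 and 6.88 ± 0.476 FPKM, a ratio of 1.93, and the log2 change of 0.79 ± 0.097 ranked 12 from the top among the 11897 tested genes. ESM1 was at 0.251 ± 0.0496 of the VEGFA level in the vector cells and at 0.667 ± 0.102 of it in the ADAMTS1 cells. ANGPTL4 (ENSG00000167772, chromosome 19, 8363289 to 8374370, plus strand), an inhibitor of lipoprotein lipase that is induced by fasting, PPAR ligands and hypoxia, was at 18.6, 16.9 and 15.5 FPKM and at 18.1, 17.3 and 18.1 FPKM. Its groups overlapped, with a change of 0.071 ± 0.062 and a 95% interval of −0.075 to 0.22.

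Among the receptors, TIE1 (ENSG00000066056, chromosome 1, 43300982 to 43323108, plus strand) was at 2.41, 2.60 and 2.86 FPKM in the vector libraries and at 3.61, 4.02 and 3.83 FPKM in the ADAMTS1 libraries. The groups did not overlap. The means were 2.62 ± 0.228 and 3.82 ± 0.205 FPKM, a ratio of 1.46, with a log2 change of 0.41 ± 0.067. NRP1 (ENSG00000099250, chromosome 10, 33177492 to 33336262, minus strand), which also binds class 3 semaphorins, was at 14.1, 14.9 and 13.5 FPKM and at 13.2, 14.0 and 13.2 FPKM. Its change was −0.068 ± 0.045, and the groups overlapped. KDR (ENSG00000128052, chromosome 4, 55078481 to 55125595, minus strand) was at 0.386, 0.658 and 0.573 FPKM and at 0.625, 0.484 and 0.644 FPKM, again overlapping. The level of NRP1 was 27.6 ± 7.72 times that of KDR in the vector cells and 23.5 ± 4.73 times in the ADAMTS1 cells.

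**Figure D3:**
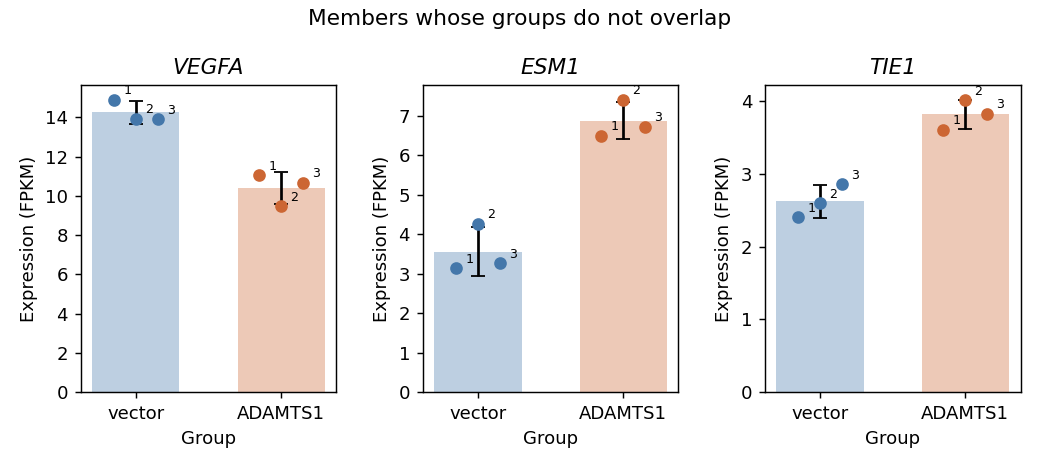
FPKM of VEGFA, ESM1 and TIE1; bars are group means from 0, error bars the SD of 3 libraries, and points the libraries with their replicate numbers. The ADAMTS1 points lie below the vector points for VEGFA (ratio 0.730) and above them for ESM1 (1.93) and TIE1 (1.46).

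Counted together, 8 of the 10 genes passed the filter of a mean of at least 1 FPKM and entered the fit; KDR and FGF2 did not. At an adjusted p under 0.05 by limma 0 of the 8 were called, where 0.0672% of all tested genes were. At an unadjusted p under 0.05 there were 2 higher and 1 lower, where 5.42% of tested genes were higher and 6.78% lower. The same genes, ESM1 and TIE1 above and VEGFA below, had groups that did not overlap, which held for 8.15% of tested genes upward and 10.6% downward. The genes were proposed with this comparison known, so nothing is read from these counts. Among genes with a mean of at least 5 FPKM 2 of them, ESM1 and VEGFA, were called. ESM1 met that higher filter only through the ADAMTS1 group, with a mean of 6.88 FPKM against 3.56 FPKM in the vector group. Its call there is therefore no added support. ESM1 alone was called when libraries were scaled to a common upper quartile and without vector replicate 2. That scaling moved the median change of all tested genes up to 0.061. Vector replicate 2 had the highest ESM1 of its group (4.27 FPKM), so leaving it out had to enlarge the change. Neither call is added support. The median change of the 8 was 0.072 against −0.0078 over all tested genes; leaving out vector replicate 1 gave 0.12, vector replicate 2 gave 0.046, vector replicate 3 gave 0.039 and ADAMTS1 replicate 2 gave 0.034.

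**Figure D4:**
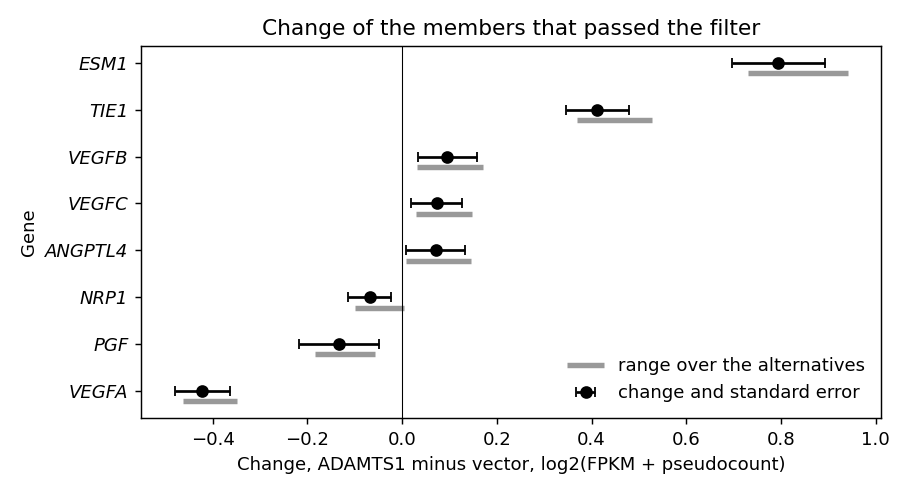
Change from vector to ADAMTS1 for the 8 genes that passed the filter, on the log2(FPKM + pseudocount) scale; points with bars are the change and its standard error at a pseudocount of 1, and grey bars span the values under the alternative settings and left-out libraries. ESM1 and TIE1 stay above 0 and VEGFA below it throughout, and the grey bar of NRP1 reaches 0. With a library left out this was fixed beforehand, since the groups of ESM1, TIE1 and VEGFA do not overlap.

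Sequence before the start site was compared because ESM1 and TIE1 were both higher in the ADAMTS1 libraries. RefSeq (GRCh38.p14) promoter entries were matched for 8 of the 10 genes, PGF with 2 entries; VEGFA and NRP1 had no entry. The 250 bases before the start of ESM1 (chr5:54985594-54985843, minus strand), TIE1 (chr1:43300732-43300981, plus strand) and ANGPTL4 (chr19:8363905-8364154, plus strand), the other secreted protein, are shown 5′ to 3′. Capitals mark matches on either strand to 5 motifs. The core of the hypoxia response element was searched as ACGTG, the site of AP-1 proteins as TGANTCA, a core sequence for ETS proteins as CAGGAA, the binding motif of SP1 proteins as GGGCGG and the element bound by the basal machinery as TATAAA.
ESM1: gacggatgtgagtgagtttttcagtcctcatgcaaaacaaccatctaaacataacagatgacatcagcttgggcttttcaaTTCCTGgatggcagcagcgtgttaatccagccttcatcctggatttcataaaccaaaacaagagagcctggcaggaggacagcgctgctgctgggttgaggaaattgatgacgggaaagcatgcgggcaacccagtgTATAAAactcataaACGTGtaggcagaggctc
TIE1: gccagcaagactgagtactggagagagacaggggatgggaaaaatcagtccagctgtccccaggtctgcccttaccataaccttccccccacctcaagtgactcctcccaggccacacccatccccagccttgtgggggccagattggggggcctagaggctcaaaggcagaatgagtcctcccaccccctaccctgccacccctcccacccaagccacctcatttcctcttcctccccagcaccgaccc
ANGPTL4: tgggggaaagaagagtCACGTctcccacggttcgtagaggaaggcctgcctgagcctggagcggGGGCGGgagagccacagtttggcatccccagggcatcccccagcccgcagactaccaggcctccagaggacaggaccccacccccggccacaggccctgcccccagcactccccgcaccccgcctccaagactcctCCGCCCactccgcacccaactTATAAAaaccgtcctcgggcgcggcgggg

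The ESM1 window held ACGTG 18 bases, TATAAA 32 bases and CAGGAA 169 bases before the start, counted to the first base of the match. ANGPTL4 held TATAAA at 29 bases and ACGTG at 234 bases, with 2 matches to GGGCGG. TIE1 held none of the 5 motifs as searched. Shorter or variant strings, such as GGAA alone or GCGTG, were not searched and can occur unmarked in any of the windows. Over all 35114 promoters of the table, ACGTG was in 18.5%, TGANTCA in 6.57%, CAGGAA in 24.1%, GGGCGG in 42.6% and TATAAA in 10.7%. In the windows of these genes no match overlapped one of another motif. The GC content was 47.6% for ESM1 and 61.6% for TIE1, and 65.2% to 82.8% for the other 7 entries, against a median of 58% over the table. Observed over expected CpG was 0.427 for ESM1 and 0.0467 for TIE1, the lowest among the entries of these genes, which otherwise had 0.558 to 0.940. The median over the table was 0.558. TIE1 lay at the percentile 6.15 of the table, and ESM1 at 42.6, not far below the median. The entry of KDR, which is known as an endothelial gene like TIE1, had 2 matches to GGGCGG and 65.2% GC. The table's ESM1 gene reaches 55022671, upstream of the RefSeq start at 54985593, so the value can include transcripts that begin elsewhere. These matches describe the letters of the windows and no binding was measured.

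The other receptors and their partners came from lists of related genes. Of the VEGF receptors and co-receptors, NRP1 and NRP2 passed the filter, and 0 of these 2 were called (median change 0.010; 0 also at an unadjusted p under 0.05). NRP2, the co-receptor of VEGFC, was at 1.95 ± 0.0521 and 2.14 ± 0.136 FPKM. FLT1 was listed at 0 in 5 of the 6 libraries and FLT4 was at 0.0213 FPKM or less in each, so both of these receptor tyrosine kinases were at or near 0, while the co-receptors NRP1 and NRP2 were expressed. In the angiopoietin and TIE system TIE1 was the one gene of 6 to pass the filter. TEK was listed at 0 in 4 libraries and at 0.0445 and 0.0457 FPKM in the others. PTPRB, the phosphatase that acts on TEK and KDR, was at 0.177, 0.250 and 0.195 FPKM in the vector libraries and at 0.319, 0.261 and 0.387 FPKM in the ADAMTS1 libraries, which did not overlap but lay under the filter.

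Class 3 semaphorins and plexins, which share NRP1 with the VEGFs, had 8 of 12 genes tested and 0 called, with 1 higher and 2 lower at an unadjusted p under 0.05 (median −0.015). Over all tested genes 5.42% were higher and 6.78% lower by that rule, which is the background of each such count here. SEMA3C was at 14.4 ± 0.701 and 15.3 ± 0.0533 FPKM, and PLXNA1 at 23.3 ± 0.393 and 21.1 ± 0.881 FPKM. Of 8 angiopoietin-like genes 2 were tested and 0 called, 0 also without adjustment (median 0.076), with ANGPTL2 at 3.21 ± 0.293 and 3.46 ± 0.438 FPKM beside ANGPTL4. Of 17 FGF ligands, receptors and heparan sulfate carriers 10 were tested and 0 called, with 2 higher and 1 lower without adjustment (median 0.054). Its most abundant genes were the syndecans SDC4, at 194 ± 6.98 and 204 ± 3.54 FPKM, and SDC1, at 51.7 ± 1.74 and 54.5 ± 0.348 FPKM. Of 15 other angiogenic factors tested 0 were called, with 4 higher and 2 lower without adjustment, against 5.42% and 6.78% of all tested genes (median −0.0051), and the matricellular genes CCN1 and CCN2 were at 376 ± 6.14 and 369 ± 2.45 FPKM and at 157 ± 2.13 and 155 ± 5.09 FPKM.

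Angiogenesis inhibitors were the list with calls: of 7 tested, THBS1 rose and SPARC fell (limma adjusted p = 0.0417 and 0.0431; median of the list 0.039), where 0.0672% of all tested genes were called. At an unadjusted p under 0.05 by limma 1 was higher and 2 were lower, where 5.42% and 6.78% of all tested genes were. The list was written with earlier results of these data known, so these counts are no independent support. THBS1, thrombospondin-1, was at 67.0, 70.4 and 69.3 FPKM with the vector and at 82.3, 83.9 and 85.0 FPKM with ADAMTS1. SPARC, a collagen-binding matrix protein, was at 3.29, 3.26 and 3.56 FPKM and at 1.36, 1.27 and 1.75 FPKM. The groups did not overlap for either gene. The collagen IV chain gene COL4A2 was at 24.2 ± 0.303 and 24.9 ± 0.205 FPKM. Without ADAMTS1 replicate 3 SPARC alone kept its call, and without any 1 of the other 5 libraries neither did. Neither was called with the replicate block, without the filter on low values, when the trend was left out of eBayes, or when libraries were scaled to the same FPKM sum.

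Hypoxia-response genes were listed without VEGFA and ANGPTL4 and set beside them, since both are known targets of hypoxia-inducible factors. Of 20 tested genes 19 had a negative change and 1 a positive one, with a median of −0.11, against −0.0078 over all tested genes. An adjusted p under 0.05 was reached by 0, and an unadjusted p under 0.05 by 11, all lower, where 6.78% of tested genes were. In 12 of the 20 every ADAMTS1 library lay below every vector library, where 10.6% of tested genes did. LDHA, the lactate dehydrogenase, was at 225 ± 3.15 and 212 ± 2.74 FPKM, and ENO1, the enolase, at 545 ± 12.2 and 528 ± 7.74 FPKM. This lowering was known from earlier results of these data and is no independent support. VEGFA, at −0.42, lay below the list median, and ANGPTL4, at 0.071, on the other side of 0. The mRNAs of oxygen-sensing genes and HIF subunits showed no such shift as a list. Of 8 tested 5 were higher and 3 lower, 0 were called (0 also at an unadjusted p under 0.05) and the median was 0.011. Groups did not overlap for 2, both higher, where 8.15% of tested genes were. EGLN3, named after its values were seen, lay under the filter and was lower without overlap (0.724 ± 0.0746 and 0.582 ± 0.0177 FPKM). HIF protein was not measured. HIF1A was at 67.0 ± 0.801 and 65.7 ± 1.61 FPKM and VHL at 21.5 ± 1.18 and 21.5 ± 1.19 FPKM. PPAR targets, listed because ANGPTL4 is one of them, had 8 genes tested, 4 higher and 4 lower, with 0 called, 1 lower without adjustment and a median of −0.0010; ACADVL was at 76.8 ± 2.17 and 72.6 ± 1.20 FPKM and HADHA at 60.9 ± 0.489 and 60.4 ± 0.666 FPKM.

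**Figure D5:**
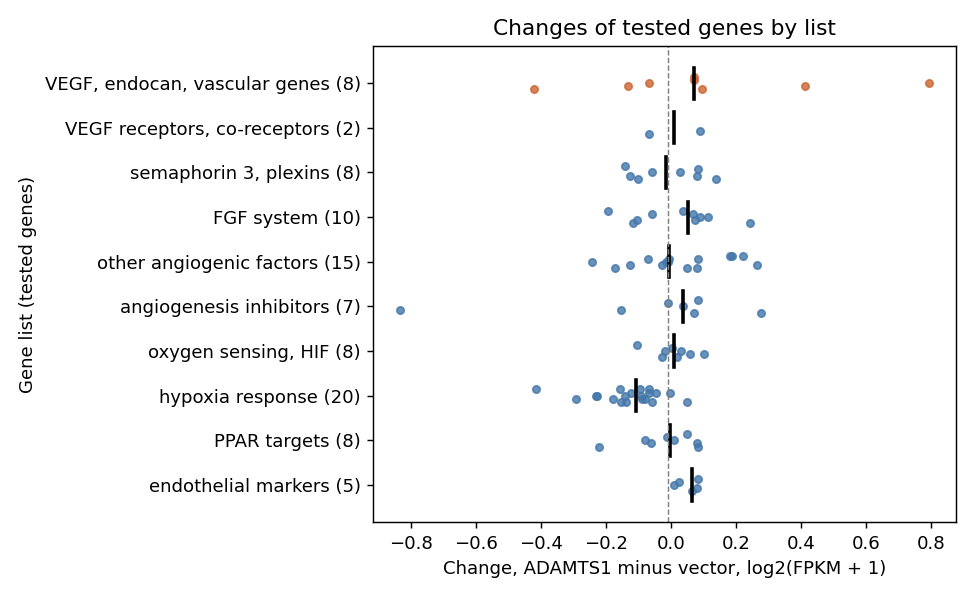
Change on the log2(FPKM + 1) scale of each tested gene (points) by list, with the list median as a black line and the median of all tested genes as a dashed line; numbers of tested genes are in parentheses. The 8 genes described here (orange) spread from −0.42 to 0.79, and 19 of the 20 hypoxia-response genes lie below 0.

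Because ESM1, TIE1 and KDR are known as endothelial genes, markers of other cell types were examined. Of 18 endothelial markers in the table, 12 had a mean under 0.1 FPKM. PECAM1 was at 0.101 ± 0.0260 and 0.0512 ± 0.00948 FPKM, CDH5 at 0.0226 ± 0.0306 and 0.0138 ± 0.0120 FPKM, VWF at 0.0453 ± 0.0233 and 0.0191 ± 0.00545 FPKM and CLDN5 at 0.0479 ± 0.0263 and 0.0470 ± 0.0705 FPKM. These were named after their values were seen. PECAM1 and VWF, both far under the filter, were lower in every ADAMTS1 library than in every vector library. Other genes of the same list were well expressed, ENG at 64.2 ± 2.11 and 67.9 ± 1.80 FPKM and ESAM at 45.8 ± 0.171 and 46.7 ± 2.84 FPKM, and, also named after their values were seen, EGFL7 at 16.6 ± 1.46 and 16.7 ± 0.992 FPKM, ROBO4 at 9.58 ± 1.05 and 10.04 ± 0.378 FPKM and the apelin gene APLN at 2.55 ± 0.311 and 2.77 ± 0.306 FPKM. The summed level of the list was 136 to 145 FPKM in the vector libraries and 140.5 to 149 FPKM in the ADAMTS1 libraries, and 0 of its 5 tested genes were called (median 0.066, 1 higher at an unadjusted p under 0.05). All 5 had a positive change, as did 5532 of the 11897 genes tested. The part of other cell types in the TIE1, ESM1 and KDR values was not tested. Fibroblast and mural markers summed to 14.9 to 15.5 and 15.3 to 16.3 FPKM (3 tested, 0 called, 1 higher without adjustment, median −0.060; CSPG4 2.65 ± 0.398 and 2.49 ± 0.0425 FPKM, MCAM 9.93 ± 0.410 and 10.9 ± 0.328 FPKM), and haematopoietic markers to at most 0.495 FPKM in any library.

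The genes most like VEGFA over the 6 libraries, by Pearson correlation of log2(FPKM + 1), were DAZAP1 (0.994), LAMA5 (0.993) and ANKRD13D (0.992). LAMA5, a laminin chain of basement membranes, was at 46.2 ± 1.55 and 37.3 ± 2.12 FPKM. DAZAP1, which encodes an RNA-binding protein, was at 29.8 ± 0.323 and 28.3 ± 0.344 FPKM. The most opposed were TXNRD1 (−0.994), H2BC12 (−0.990) and DDX52 (−0.988). With 6 libraries in 2 groups such values mostly follow the group difference: 359 genes had a correlation above 0.9 with VEGFA and 235 below −0.9.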

How the data were processed

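RNA-seq was described for 6 libraries of MDA-MB-231 cells, 3 per group; nothing in the labels says whether these were separate cultures, and p-values then reflect only the spread among the libraries, which may be technical. The authors deposited 1 FPKM value per gene and library; FastQC, HISAT2 and StringTie with the build hg38 are named per the submitters' processing notes, and versions, annotation and strand setting were not given in the sources used here. FPKM scales each library to its own total, so that changes are relative to the rest of the library, and it is not a count, so no count test was used.

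For repeated symbols the highest by mean was used (32119 entries, 31835 genes). Genes with a mean of at least 1 FPKM (11897) were fitted with limma 3.58.1 in R 4.3.3 (eBayes with trend, two-sided) on log2(FPKM + 1), adjusted over all tested genes by Benjamini-Hochberg with a threshold of 0.05; the pseudocount understates the change of low genes. The fit was tested on simulated data. Relative depth came from the commonest ratio between low values (0.02 to 0.5 FPKM). No 2 libraries held the same values. Alternatives were a pseudocount of 0.1, no filter or a mean of at least 5 FPKM, 3 scalings (upper quartile, median of ratios, sum), eBayes without trend, a replicate block and leaving out each library. Promoters were read from RefSeq and transcripts from GENCODE 29. Plots were drawn with Matplotlib 3.10.9 in Python 3.11.15.

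The genes, the lists and the tests were chosen with earlier results of these data known. All 10 genes were named, and of each related list the genes past the threshold and the 2 with the highest mean; other genes were named after their values were seen, among them FLT1, FLT4, TEK, ESR1, PECAM1, CDH5, VWF and CLDN5.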

Additional observations from a re-analysis of the deposited data

How the results depend on the processing

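Of the 8 tested genes ESM1 and TIE1 stayed higher and VEGFA lower under every alternative that tested them. VEGFB, VEGFC and ANGPTL4 kept a positive change and PGF a negative change, but their groups overlapped, so their direction is not settled. Their smallest changes in size were 0.032 for VEGFB, 0.030 for VEGFC, 0.0093 for ANGPTL4 and −0.057 for PGF. The change of NRP1 went from −0.068 to 0.0051 with a common upper quartile, a scaling that moved the median of all tested genes to 0.061. VEGFA ranged from −0.46 to −0.35, ESM1 from 0.73 to 0.94 and TIE1 from 0.37 to 0.53. With a library left out the direction of these genes could not change, since their groups do not overlap. The number of these genes called, 0 at first, was 2 at a mean of at least 5 FPKM. ESM1, 1 of these 2, met that filter only through the ADAMTS1 libraries. The number was 1 with a common upper quartile and 0 to 1 with a library left out. The 1 was ESM1 without vector replicate 2, the vector library with its highest value. The median change of the 8 tested genes, 0.072, was 0.15 with a common upper quartile and 0.034 to 0.12 with a library left out. Over all genes the count of 8 was 1 with no filter, 31 at a mean of at least 5 FPKM, 3 with a common sum, 2 without trend and 1 to 5 with a library left out. The 2 calls in the related lists became 1 with a pseudocount of 0.1, 1 at a mean of at least 5 FPKM, 1 with a common upper quartile, 0 with no filter, 0 with a common sum, 0 without trend and 0 to 1 with a library left out. The median of the hypoxia list stayed between −0.15 and −0.045. With the replicate block 1 gene was called over all genes, 0 of the 8 and 0 in the related lists. Deviations of same-numbered libraries from their group means had correlations of −0.0022, 0.018 and −0.093, so no shared deviation was seen. The labels do not say whether the numbers pair the libraries, and 3 libraries per group cannot exclude it. The cause of the moved counts was not tested. FGF2 and KDR lay under the filter and were tested only with no filter, where neither was called.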

Other observations

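Several of the highest and lowest values of these genes fell in the same libraries. ADAMTS1 replicate 2, the library with the lowest relative depth of its group (1.044), had the lowest VEGFA (9.49 FPKM) and the highest ESM1 (7.41 FPKM), TIE1 (4.02 FPKM), VEGFB (23.3 FPKM) and VEGFC (26.2 FPKM) of all 6 libraries. Vector replicate 1, the least deep library of its group, had the highest VEGFA (14.9 FPKM), PGF (3.01 FPKM) and ANGPTL4 (18.6 FPKM) of all 6 and the lowest ESM1 (3.15 FPKM), TIE1 (2.41 FPKM) and KDR (0.386 FPKM). It also had the highest VEGFB (20.9 FPKM) and VEGFC (25.3 FPKM) of its group. VEGFB and VEGFC thus went with VEGFA in this library and against it in ADAMTS1 replicate 2. The part of depth in these values was not tested. Both of these libraries are the ones of their group farthest from the other group in VEGFA, ESM1 and TIE1. Leaving out either one made the changes of all 3 genes smaller in size, which follows from that choice of library. The log2 change without vector replicate 1 was −0.39 for VEGFA, 0.73 for ESM1 and 0.37 for TIE1. Without ADAMTS1 replicate 2 it was −0.36 for VEGFA, 0.75 for ESM1 and 0.38 for TIE1. With all libraries it was −0.42, 0.79 and 0.41. Each change kept its direction, which was fixed beforehand because the groups of these genes do not overlap.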
